A study of Homo sapiens with 12 samples.

Results

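The genes described here serve T cells, B cells, red cells and platelets: 33 genes that mark lineages other than the monocytic one of the cell line studied. They comprise 7 genes of the T cell surface and its signalling, 4 T cell factors or receptors, 3 genes of antigen receptor recombination, 7 B cell genes, 7 erythroid genes and 5 megakaryocyte genes. The list was taken as given, by gene name, and was chosen with earlier results of these data known. Every deposited H3K9ac region that lay inside a gene or within 1 kb of either annotated end was assigned to it, which gave 46 of the 47648 regions in the table. A region was found for 22 of the 33 genes, and 11 had none.

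MOLM-13 is a human acute monocytic leukaemia line, known for its fusion of KMT2A to MLLT3 and for an FLT3 gene with an internal tandem duplication. The study asked how an inhibitor of the lysine acetyltransferase KAT6A alters chromatin in these cells. One group, with 3 H3K9ac libraries, received DMSO, the solvent, for which the labels give no dose or duration, and the other, also with 3, received 4 µM WM-1119, the inhibitor, for 4 days. The labels name no further allele or agent. Nor do they tell if the replicates came from different cultures, and p-values therefore cover the spread between these libraries alone, which may be technical. Of the 12 samples, the 6 input samples were not analysed here.

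Lineage genes of this kind are switched on by small sets of transcription factors: GATA1 and KLF1 in red cell precursors, PAX5 and EBF1 in B cells, GATA3, TCF7 and LEF1 in T cells. In cells of another lineage they are usually silent. Acetylation of lysine 9 on histone H3 (H3K9ac) lies mainly at active promoters and enhancers. Levels are given as CPM, the reads of a region when all listed regions together are scaled to 1000000, and genes are ranked against each other only as CPM per kb of region, since the CPM of a region also grows with its width. Because all libraries are scaled to that total, a change common to all regions would not be seen. In a bulk library a mark on a few cells and a weak mark on every cell cannot be told apart.

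The promoters of 8 genes are shown because they span what was found: 4 overlap an H3K9ac region and 4 do not, and they differ in CpG content, the dinucleotide that forms CpG islands. Each is the 250 bases before a start listed by RefSeq on GRCh38.p14, written 5′ to 3′ on the gene's strand, with each CpG in capitals. The TFRC promoter lies at chr3:196082091-196082340 on the minus strand, the EPOR promoter at chr19:11384315-11384564 on the minus strand, the CD79A promoter at chr19:41877029-41877278 on the plus strand and the PAX5 promoter at chr9:37034269-37034518 on the minus strand. A promoter is called covered where any of its bases overlap a region. The region took in all 250 bases printed for TFRC and 249 for PAX5, but only 121 for EPOR and 73 for CD79A.
TFRC promoter: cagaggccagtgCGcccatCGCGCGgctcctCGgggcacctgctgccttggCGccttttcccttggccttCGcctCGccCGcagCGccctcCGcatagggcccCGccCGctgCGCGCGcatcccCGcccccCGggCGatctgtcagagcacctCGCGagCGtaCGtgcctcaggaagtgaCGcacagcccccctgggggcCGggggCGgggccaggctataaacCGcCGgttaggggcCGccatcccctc
EPOR promoter: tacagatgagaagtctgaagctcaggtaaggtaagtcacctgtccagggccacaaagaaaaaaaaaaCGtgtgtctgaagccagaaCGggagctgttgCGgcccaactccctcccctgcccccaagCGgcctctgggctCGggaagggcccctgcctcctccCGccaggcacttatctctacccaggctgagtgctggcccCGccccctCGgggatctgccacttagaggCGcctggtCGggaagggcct
CD79A promoter: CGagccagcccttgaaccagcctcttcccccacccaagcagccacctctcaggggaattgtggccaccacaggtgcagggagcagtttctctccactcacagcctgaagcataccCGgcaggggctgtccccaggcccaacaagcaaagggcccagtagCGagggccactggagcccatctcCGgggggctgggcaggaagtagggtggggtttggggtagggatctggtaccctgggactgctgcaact
PAX5 promoter: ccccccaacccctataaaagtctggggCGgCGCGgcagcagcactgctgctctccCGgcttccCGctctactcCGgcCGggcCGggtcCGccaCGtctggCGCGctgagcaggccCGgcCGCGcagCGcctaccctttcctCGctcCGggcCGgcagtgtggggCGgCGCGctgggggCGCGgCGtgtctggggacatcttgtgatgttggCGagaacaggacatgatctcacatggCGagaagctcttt
The GATA1 promoter lies at chrX:48786340-48786589 on the plus strand, the KLF1 promoter at chr19:12887202-12887451 on the minus strand, the CD3D promoter at chr11:118342706-118342955 on the minus strand and the IL7R promoter at chr5:35856641-35856890 on the plus strand. These 4 were not covered by any region.
GATA1 promoter: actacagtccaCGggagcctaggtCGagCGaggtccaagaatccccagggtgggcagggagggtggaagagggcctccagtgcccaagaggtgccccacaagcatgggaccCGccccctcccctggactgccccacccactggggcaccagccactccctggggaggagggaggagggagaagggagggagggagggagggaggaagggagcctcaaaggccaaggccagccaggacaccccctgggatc
KLF1 promoter: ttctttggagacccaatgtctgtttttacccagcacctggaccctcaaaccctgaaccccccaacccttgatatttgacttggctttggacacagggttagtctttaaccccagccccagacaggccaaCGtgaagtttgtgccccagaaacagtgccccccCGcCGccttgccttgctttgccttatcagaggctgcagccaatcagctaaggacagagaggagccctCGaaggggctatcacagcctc
CD3D promoter: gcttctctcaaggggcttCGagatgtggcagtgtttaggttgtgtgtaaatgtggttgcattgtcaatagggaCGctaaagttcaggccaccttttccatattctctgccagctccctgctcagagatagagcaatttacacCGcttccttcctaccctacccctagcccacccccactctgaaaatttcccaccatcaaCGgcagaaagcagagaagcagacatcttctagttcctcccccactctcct
IL7R promoter: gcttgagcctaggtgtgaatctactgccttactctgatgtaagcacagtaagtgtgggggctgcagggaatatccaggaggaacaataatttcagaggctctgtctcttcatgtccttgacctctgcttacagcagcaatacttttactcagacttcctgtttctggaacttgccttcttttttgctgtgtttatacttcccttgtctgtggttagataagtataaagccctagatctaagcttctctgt
The stretches of TFRC and PAX5 hold 29 and 27 CpG, and EPOR holds 10. CD79A, GATA1, KLF1 and CD3D hold 4 each, and IL7R holds 0. CD79A was thus covered with no more CpG than 3 of the uncovered promoters.

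Over the RefSeq promoter table, which adds 50 bases after each start to make a window of 300 bp, 21 of the 33 genes matched, with 30 windows. A region covered a window of 8 of these genes (CD22, CD79A, EPOR, GATA3, PAX5, RAG1, TCF7 and TFRC), which is 38.1%, and 62% of the 15843 coding genes in the table had a covered window. The other 12 genes without an entry were CD3E, CD3G, CD7, CD79B, MS4A1, BLK, HBB, HBA1, ANK1, PF4, VWF and NFE2. The median CpG count was 20.5 in the 8 covered windows and 7 in the 22 others, beside 27 and 7 over all covered and uncovered windows. GATA3, the T helper cell factor, has 6 listed starts: the one under a region held 16 CpG, while an uncovered one held 36. A GATA motif, AGATAA or TGATAA on either strand, was present in 20% of the windows of these genes and in 12.5% of all windows. Most windows of these genes were uncovered, and over all coding genes the motif was present in 20.4% of uncovered and 6.65% of covered windows. In these genes it was present in 22.7% of the 22 uncovered windows and 12.5% of the 8 covered ones. Of the 8 stretches printed above, EPOR, KLF1 and IL7R each hold 1 match.

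**Figure D1:**
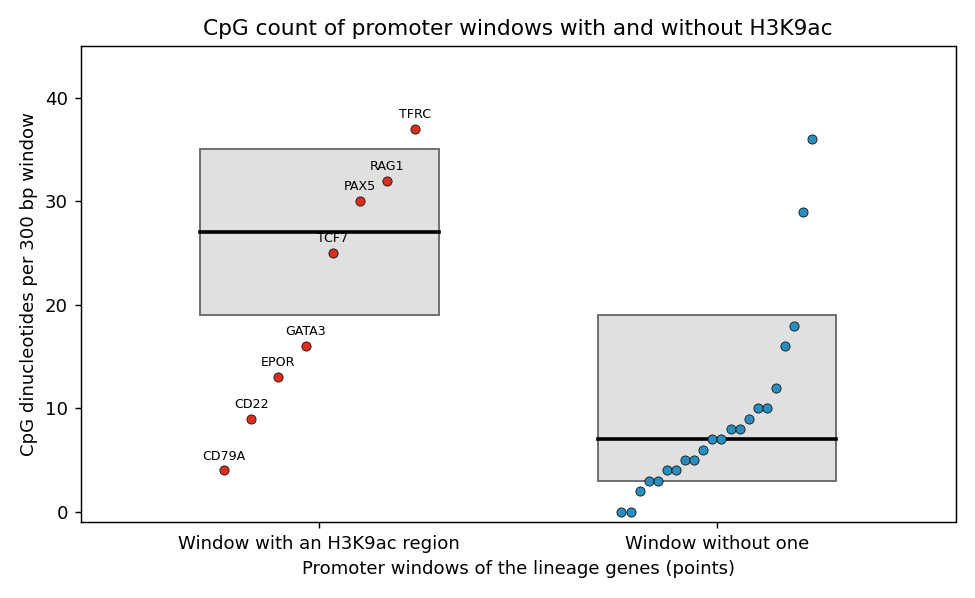
Number of CpG dinucleotides (vertical axis) in the promoter windows of 300 bp of the lineage genes, with windows under an H3K9ac region on the left and the others on the right. Each point is 1 window, and the grey box and black line give the quartiles and median over all coding windows (27 covered, 7 not covered). The 8 covered windows run from 4 CpG at CD79A to 37 at TFRC, and 2 uncovered windows of GATA3 lie above 25.

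Most of these genes had at least 1 region, but few had one of high CPM. The share with a region was 66.7%, close to the 69.4% of all 20037 coding genes (13902) assigned in the same way. A strongest region whose mean reached 10 CPM was found for 8 genes, or 24.2%, while 57.5% of coding genes had one; these counts are of CPM per region and reflect its width as well. At least 50 CPM was reached by TFRC, EPOR, RAG1 and ANK1, or 12.1%, beside 36.7% of coding genes. Of the 46 regions, 28 had a mean below 5 CPM (60.9%, and 58.0% of all regions), 6 lay between 5 and 10 CPM and 12 at 10 CPM or more. Their median width of 393.5 bp was near the 401 bp of all regions. Counting regions inside the gene alone left 19 genes, and allowing 5 kb on either side gave 25, beside 68.1% and 71.9% of coding genes.

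The 11 genes with no region were CD3D, CD3G, CD2, IL7R, DNTT, MS4A1, GATA1, HBB, HBA1, GP9 and PF4. They include both globin genes, the erythroid master factor GATA1, 2 of the 3 CD3 chains of the T cell receptor complex and the B cell surface protein CD20 (MS4A1). The table lists only regions that were called, so a gene without one has no measured level. HBA1 has a near-identical copy, HBA2, between which reads could be divided, and neither had a region.

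The libraries differed in depth by 17.7 times. Reads in regions numbered 719329, 1298443 and 7481097 in DMSO replicates 1, 2 and 3, and 4542322, 9996190 and 12705349 in WM-1119 replicates 1, 2 and 3. One read was worth 1.39, 0.770 and 0.134 CPM in the DMSO libraries and from 0.0787 to 0.220 CPM in the WM-1119 libraries. A value of 0 therefore allows up to 4.17 CPM in DMSO replicate 1 and 0.236 CPM in WM-1119 replicate 3, counting error alone. Regions of low mean also took more of the total in DMSO replicates 1 and 2: those below 5 CPM held 12.1% and 9.62%, beside 3.28% in DMSO replicate 3 and 3.08% to 4.59% in the WM-1119 libraries. No 2 libraries agreed within sampling noise. Among 33 myeloid genes, 32 had a region and 25 reached 10 CPM, with CEBPD, LYN, AZU1 and FLT3 highest per kb (70.2 to 117 CPM per kb). CEBPD and LYN lie on chromosome 8, as do ANK1 and BLK. With the input samples not analysed, no level was corrected for the copy number of a chromosome. How far copy number enters such rankings was not tested.

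TFRC had the strongest region of the set. TFRC encodes transferrin receptor 1, which brings iron into red cell precursors and into dividing cells of any kind. Its region at chr3:196080419-196082970 (hg38) covers the annotated start. It held 82.0, 127 and 145 CPM in DMSO replicates 1, 2 and 3 and 139, 127 and 133 CPM in WM-1119 replicates 1, 2 and 3. DMSO replicate 1 was the lowest library and DMSO replicate 3 the highest, so the groups overlapped. At 49.2 CPM per kb it was above all other regions of these genes, and by mean CPM it lay at the 96.6th percentile of all regions. A second TFRC region of 521 bp held 2.41 to 7.71 CPM.

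EPOR, the receptor for erythropoietin, had 4 regions. The strongest, chr19:11380081-11382379, lies inside the gene 1935 bp from its start. The values there were 63.9, 70.9 and 70.4 CPM with DMSO and 67.4, 81.9 and 70.6 CPM with WM-1119, 30.8 CPM per kb. The groups overlapped, and the span of all 6 libraries was narrow. The region over the start, chr19:11382945-11384435, was weaker: 27.8, 22.3 and 11.2 CPM with DMSO and 27.3, 9.30 and 9.84 CPM with WM-1119. Its first replicates of both groups were high and DMSO replicate 3 and the other WM-1119 libraries low.

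In the other 2 EPOR regions every WM-1119 library was below every DMSO library. At chr19:11373890-11376244, 963 bp beyond EPOR and over the start of SWSAP1, DMSO libraries held 62.6, 62.4 and 70.6 CPM and WM-1119 libraries 50.4, 53.0 and 60.8 CPM. At chr19:11378431-11378800, inside the gene, the values were 9.73, 6.16 and 3.74 CPM against 2.20, 2.20 and 2.05 CPM. The smaller of these regions rested on 7 reads in DMSO replicate 1. The log2 change of log2(CPM + 1) was -0.25 ± 0.19 (SE, 3 libraries a group) in the first and -1.18 ± 0.54 in the second, and limma's adjusted p was 0.47 and 0.36. Neither passed the threshold of 0.05. With each library centred on its median the first became 0.52, and edgeR gave 0.16, while the second kept its sign.

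ANK1, which encodes the ankyrin that ties the red cell membrane to its skeleton, had 12 regions, all inside the gene on chromosome 8, more than any other gene of the set. The strongest, at chr8:41827988-41829357, lies 67384 bp from the nearer annotated end of ANK1, for which the promoter table lists no start. It held 57.0, 64.7 and 62.4 CPM with DMSO and 49.97, 56.7 and 68.5 CPM with WM-1119. At 43.7 CPM per kb it came second to TFRC. Next was chr8:41791652-41792841, with 41.7, 38.5 and 22.9 CPM with DMSO and 25.5, 24.8 and 32.1 CPM with WM-1119. Both pairs of groups overlapped. In 6 of the 12 regions, the last one included, DMSO replicate 1 was the highest library and DMSO replicate 3 the lowest, with all WM-1119 libraries between them. The others of these began at 41653517, 41663783, 41664610, 41822686 and 41835841. DMSO replicate 1 held 26.4, 13.9, 4.17, 12.5 and 20.9 CPM there and DMSO replicate 3 held 4.68, 2.14, 0.267, 1.07 and 2.94 CPM. The remaining 5 regions held 0 to 15.3 CPM with DMSO and 0.315 to 5.72 CPM with WM-1119. One of these, at 41660770, lies by the genes of the microRNA miR-486 that ANK1 hosts, with 0 to 5.56 CPM.

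KLF1, the erythroid factor that activates adult globin, had 1 region, 475 bp beyond the gene and not over its start. It held 1.39, 2.31 and 0.668 CPM with DMSO and 0.881, 0.700 and 1.57 CPM with WM-1119, which is 1 to 20 reads. GATA1, HBB and HBA1 had none. Of the 7 erythroid genes, the 3 with strong regions thus encode 2 receptors and a membrane skeleton protein. Among these 7, neither nuclear factor nor globin gene had a region above 2 CPM on average. That does not extend to erythroid factors in general. NFE2, placed here with the megakaryocyte genes, had a region with a mean of 21.4 CPM. In a further erythroid list described below, regions of GFI1B (near TSC1) and ZFPM1 had means of 71.3 and 22.3 CPM.

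The megakaryocyte genes had 5 regions in 3 of 5 genes. NFE2, a subunit of the factor NF-E2 that acts in platelet formation, had a region over an annotated end, chr12:54299614-54301431. It held 27.8, 24.6 and 13.6 CPM with DMSO and 29.7, 17.4 and 15.4 CPM with WM-1119, 11.8 CPM per kb, and a second region of 197 bp held 0.1 to 4.17 CPM. ITGA2B, the platelet integrin chain CD41, held 15.3, 12.3 and 9.62 CPM with DMSO and 14.8, 10.6 and 9.92 CPM with WM-1119 at chr17:44384942-44386169, 3480 bp from its start. In both genes the first replicate of each group was the highest of its group, and the groups overlapped. VWF, the clotting protein of platelets and vessel walls, had 2 weak regions of 0 to 6.95 CPM, and GP9, part of the platelet receptor for VWF, and the chemokine PF4 had none.

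Among genes of antigen receptor recombination, RAG1 had a strong region. RAG1 and RAG2 encode the recombinase that cuts antigen receptor genes in developing lymphocytes. The RAG1 region at chr11:36508605-36510915 covers the RAG1 start and also the start of TRAF6, a signalling gene of broad expression, so the signal of the 2 genes cannot be told apart. It held 55.6, 75.5 and 63.5 CPM with DMSO and 81.5, 68.6 and 66.9 CPM with WM-1119, 29.7 CPM per kb. The lowest and the highest library were the first replicates of the 2 groups. The RAG2 region, chr11:36594466-36595149, lies 3087 bp from the RAG2 start and near the start of IFTAP, with 5.39 to 9.73 CPM in DMSO and 5.70 to 10.8 CPM in WM-1119. DNTT, the polymerase that adds bases at the joins, had none.

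In the T cell genes no region reached 15 CPM per kb. TCF7, a T cell factor, had a wide region, chr5:134113921-134115677, of 7.80 CPM per kb, which covers a listed TCF7 start and lies by an annotated end of VDAC1, a mitochondrial channel gene. The values were 22.2, 16.2 and 9.89 CPM with DMSO and 11.9, 11.6 and 10.5 CPM with WM-1119. DMSO replicates 1 and 2 were above all WM-1119 libraries and DMSO replicate 3 was below them. ZAP70, the kinase of T cell receptor signalling, had a region inside the gene, 14971 bp from the nearest listed start, with 13.3 CPM per kb, the highest of the T cell genes. There DMSO libraries held 6.95, 15.4 and 10.7 CPM and WM-1119 libraries 6.16, 9.10 and 10.5 CPM.

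The other T cell regions were weak. CD3E, a CD3 chain, had 2 regions beyond its annotated end, with 0.535 to 9.24 CPM in DMSO and 0.440 to 3.70 CPM in WM-1119. CD7, a surface protein of early T cells, had 2 with at most 3.85 CPM in any library, and LCK, the kinase that starts T cell receptor signalling, had 1 with at most 4.17 CPM. The region over a GATA3 start held 2.78, 0.770 and 0.267 CPM with DMSO and 2.42, 1.10 and 0.394 CPM with WM-1119, or 2 reads in DMSO replicate 1. The LEF1 region held at most 4.17 CPM. It lies near the start of LOC124900752 and 145 bp inside the annotated end at which LEF1, on the minus strand, begins. The only LEF1 start in the promoter table is 2340 bp away, and its window was not covered.

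Per kb, the regions of the B cell genes were highest at BLK (18.9 CPM per kb), EBF1 (15.8) and CD79A (12.9), and CD79A's was the widest of these at 1142 bp. CD79A and CD79B encode the signalling chains of the B cell receptor. The CD79A region over its start, chr19:41877206-41878347, held 29.2, 16.9 and 10.6 CPM with DMSO and 8.59, 10.6 and 12.3 CPM with WM-1119. DMSO replicates 1 and 2 were the 2 highest libraries, but DMSO replicate 3 lay within the range of the WM-1119 libraries, so the groups overlapped. CD79B had 1 region of 0.4 to 6.93 CPM, and a second CD79A region was below the filter of 1 CPM on the mean.

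PAX5 and EBF1, the factors that set B cell identity, had regions of low level. PAX5 had 4. The one of highest mean, chr9:36996046-36996535, lies inside the gene and held 6.95, 4.62 and 0.802 CPM with DMSO and 5.50, 2.30 and 3.31 CPM with WM-1119. Another, chr9:37034125-37034517, overlaps the promoter printed above: 5.56, 0 and 1.47 CPM with DMSO and 1.32, 1.6 and 2.52 CPM with WM-1119. The last 2 held 0.770 to 8.34 CPM with DMSO and 0.394 to 3.96 CPM with WM-1119. In PAX5 the DMSO libraries spanned the WM-1119 libraries wherever the values are given singly. EBF1 had 1 region deep inside the gene, chr5:158954026-158954367, with 18.1, 6.93 and 2.14 CPM with DMSO and 1.10, 1.6 and 2.68 CPM with WM-1119. DMSO replicate 1 was far above the rest there, on 13 reads, and DMSO replicate 3 lay among the WM-1119 libraries. CD22, a B cell inhibitory receptor, had a region over its start (1.34 to 6.95 CPM) and another by FFAR1 (0 to 5.39 CPM). The kinase BLK had 1 region on chromosome 8, of 226 bp and 169 bp beyond the gene. It held 11.1, 6.93 and 1.6 CPM with DMSO and 2.64, 1.40 and 1.97 CPM with WM-1119, on 8 and 9 reads in DMSO replicates 1 and 2.

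**Figure D2:**
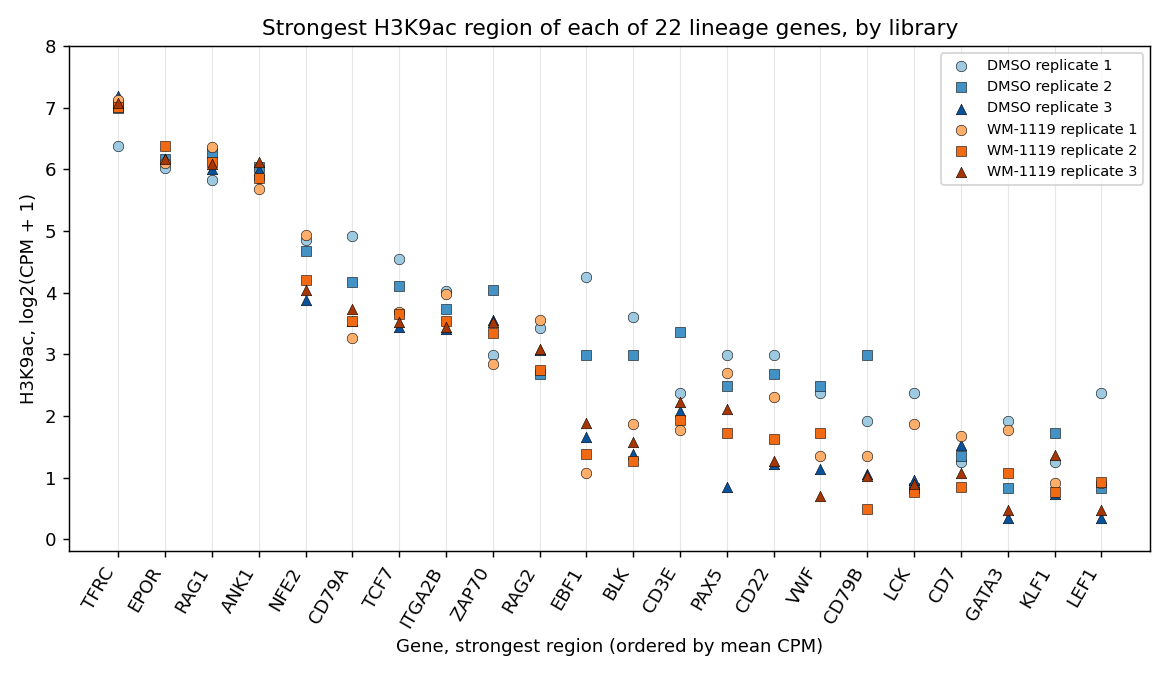
H3K9ac of the strongest region of each of the 22 genes with a region, as log2(CPM + 1) on the vertical axis, genes in order of mean CPM. Each point is 1 library, blue for DMSO and orange for WM-1119, with the shape giving the replicate number. By CPM of the whole region TFRC, EPOR, RAG1 and ANK1 stand above the rest. At several genes, CD79A, TCF7, EBF1, BLK and CD22 among them, the 2 highest libraries are DMSO replicates 1 and 2. Both were above DMSO replicate 3 in 65.2% of the regions of these genes and 68.3% of all regions.

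The comparison of WM-1119 with DMSO called none of the 44 regions tested, those whose mean reached 1 CPM. In limma the lowest adjusted p was 0.336, at EBF1 (-1.52 ± 0.57, SE), and the highest 0.962. Of all 44763 regions tested, 0.0603% were called lower (27 regions) and 0% higher, so 0 of 44 does not set these genes apart from the background. A p above the threshold does not show that a region was unchanged, and the standard error of the log2 change reached 0.61, at VWF. At an unadjusted p under 0.05 in limma, 5 of the 44 were lower (EBF1, CD79A, the smaller separated EPOR region and ANK1 at 41663783 and 41835841) and 0 higher. Of all 44763 regions, 4817 were lower and 1153 higher. The share lower was thus near that of all regions, and does not set these genes apart. edgeR on whole reads recovered from 5 libraries also called 0 of these regions, and 0 of all 45003 regions it tested.

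The groups did not overlap in 2 of the 44 regions, both EPOR and both lower with WM-1119, which is 4.55%, beside 13.2% of all regions lower. No region of these genes was separated and higher, beside 3.76% of all regions. The log2 change was negative in 34 of the 44 (77.3%), as in 77.2% of all regions, and ran from -1.52 at EBF1 to 0.23 at PAX5. The 10 positive ones were at TFRC (2), PAX5 (3), RAG1, RAG2, GATA3, EPOR and ANK1. Their median was -0.35, and that of all regions was -0.47. Centring each library on its median moved the median of all regions to 0.30 and that of these genes to 0.43, and quantile normalization gave 0.01 and 0.04, so the sign of both depends on the scaling.

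Set beside regions of the same mean CPM, the lineage genes took values of both sides. Between 1 and 2 CPM the median log2 change was -0.32 (12 regions) and -0.55 over all regions of that class. It was -0.59 (14 regions) and -0.75 between 2 and 5 CPM, and -0.93 (6 regions) and -0.64 between 5 and 10 CPM. The 5 regions between 10 and 20 CPM had a median of -0.41, beside -0.40. Between 20 and 50 CPM there were 2, ANK1 and NFE2, with a median of -0.17 beside 0.00. The 5 regions at 50 CPM or more had 0.09 beside 0.19. In all, 19 of the 44 lay below the median of their class and 19 within its quartiles.

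On chromosome 8, which holds 13 of the 44 regions (12 of ANK1 and 1 of BLK), the median was -0.55, beside -0.77 over all 2083 tested regions there. The other 31 regions had a median of -0.25, beside -0.46 for all regions outside chromosome 8.

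**Figure D3:**
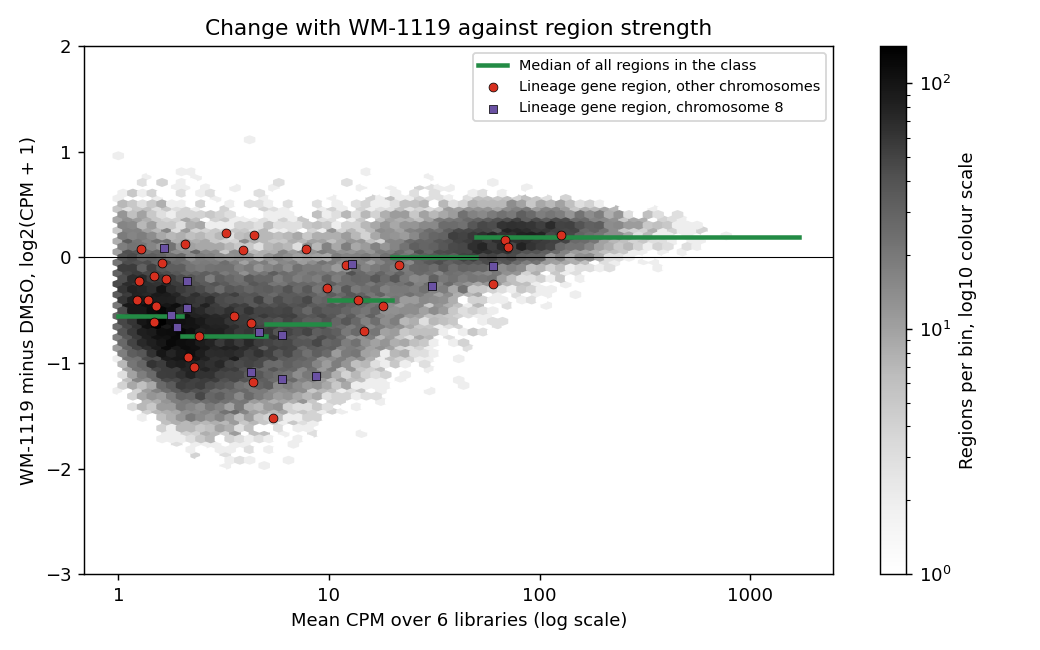
Log2 change with WM-1119 on the log2(CPM + 1) scale (vertical axis) against mean CPM over 6 libraries (horizontal log axis). Grey bins count all regions tested, green bars give the median of all regions in each class of mean CPM, red circles are regions of the lineage genes and violet squares those on chromosome 8. The class medians run from -0.75 between 2 and 5 CPM to 0.19 at 50 CPM or more, and the lineage regions lie on both sides of them.

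The sums over regions set the libraries apart by strength of region. In the 12 regions of at least 10 CPM the sums were close: 512, 543 and 495 CPM with DMSO and 521, 484 and 497 CPM with WM-1119. In the 28 regions below 5 CPM they were 136, 87.8 and 30.6 CPM with DMSO and 63.4, 39.1 and 37.4 CPM with WM-1119. DMSO replicate 3 was thus the lowest of all 6 in the weak regions, and DMSO replicates 1 and 2 the highest. Weak regions held 18.6%, 12.7% and 5.53% of the CPM of these genes with DMSO and 10.3%, 7.13% and 6.63% with WM-1119. DMSO replicate 1, the shallowest library, was the highest of the 6 in 29 of the 46 regions (63.0%), and in 49.2% of all regions. The part of depth and of weak-region signal in the differences between groups was not tested.

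**Figure D4:**
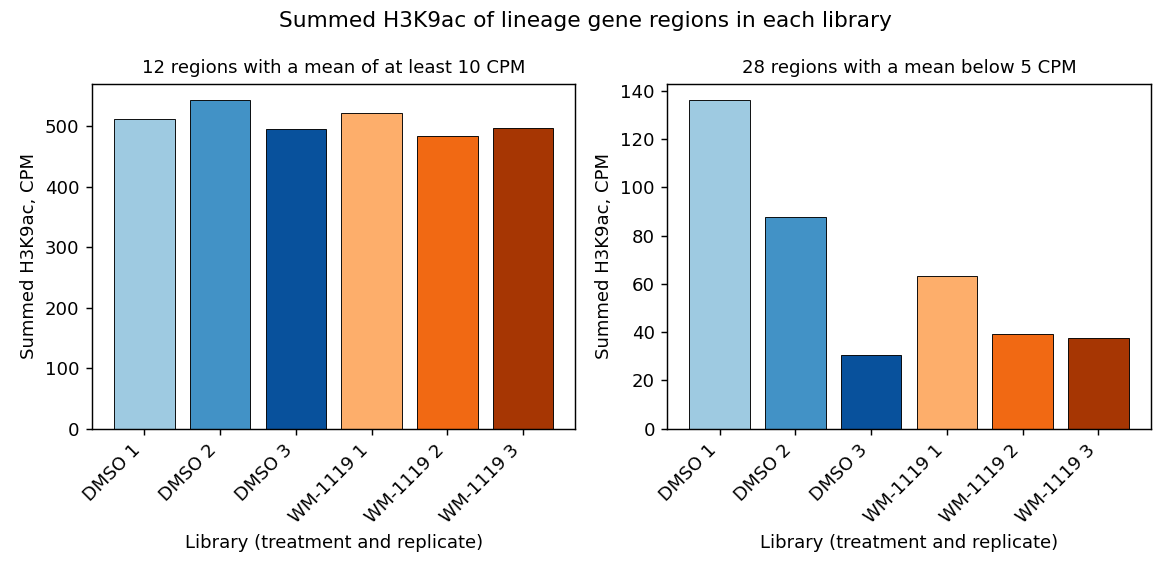
Summed CPM of the lineage gene regions in each of the 6 libraries, on the left for the 12 regions whose mean reached 10 CPM and on the right for the 28 with a mean below 5 CPM. The left bars lie between 484 and 543 CPM, while the right bars run from 30.6 CPM in DMSO replicate 3 to 136 CPM in DMSO replicate 1.

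The count of calls turned on which DMSO library was left out. Without DMSO replicate 3, limma called 15 of 45 regions lower and 0 higher, where 38% of all regions were called lower (17206 of 45326) and 5.28% higher (2394). The 15 were 6 regions of ANK1 and 1 each of BLK, CD22, CD3E, CD79A, CD79B, EBF1, EPOR, TCF7 and VWF. The largest adjusted p among them was 0.0397, at TCF7, and the smallest 0.00549, at 2 ANK1 regions. With DMSO replicates 1 and 2 left out, and the lone DMSO library assumed to vary like the WM-1119 libraries, limma called 0 and the median of these regions was 0.22, beside 0.06 for all.

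Other genes of the same lineages were read in the same way, from lists of 22 T and NK cell, 17 B cell, 25 erythroid and 15 megakaryocyte genes that hold none of the 33. A region was present for 14, 10, 9 and 8 of them, and a region of at least 10 CPM for 6, 7, 7 and 3. limma called 0 regions in each list and the medians of the log2 change were -0.40, -0.35, -0.29 and -0.41. The highest per kb were NKG7 with 20.7, CD27 with 37.6 (near TAPBPL), CA2 with 57.1 (on chromosome 8) and FLI1 with 44.5 CPM per kb. The groups did not overlap and WM-1119 was lower in 3 of 29, 4 of 31, 2 of 20 and 1 of 20 regions tested, beside 13.2% of all regions, and higher in 0, 0, 1 and 1, beside 3.76%. The 2 higher ones were at FLI1 and EPB41. FLI1 and the red cell skeleton gene EPB41 had log2 changes of 0.48 ± 0.16 and 0.43 ± 0.20 (SE), and did not pass in limma (adjusted p 0.31 and 0.36). The erythroid genes without a region included SLC4A1, ALAS2 and the globin genes HBD, HBG1, HBG2, HBA2 and HBE1. The globin gene HBZ, also on that list, did have a region. In the 33 myeloid genes, a list that also holds HOXA9, MEIS1 and FLT3, 16 reached 50 CPM, beside 4 of the 33 lineage genes. Of these 4, RAG1 did so at the region that also covers the TRAF6 start.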

How the data were processed

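H3K9ac ChIP-seq of MOLM-13 cells gave 3 libraries with DMSO and 3 with WM-1119; sample titles give group and replicate number. Bowtie2, SAMtools, MACS2, bedtools and the build hg38 are named, without versions or roles, per the submitters' processing notes. The authors' deposited table holds 1 column per library, named TPM per the file headers, whose values are CPM: each column sums to 1000000, and divided by 1 step per library the values come out whole (100% within 0.02 reads, up to 100 reads). The step of WM-1119 replicate 2 lies too near a round value to trust, so the count test left it out. Starts were treated as counted from 0, and 1 was added.

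limma 3.58.1 in R 4.3.3 (lmFit, eBayes with the trend and robust options) took log2(CPM + 1) of every region whose mean reached 1 CPM. Treatment was the sole term, and Benjamini-Hochberg adjustment ran over all regions, with a threshold of 0.05. It was tested on simulated data. edgeR 4.0.16 (quasi-likelihood, TMM) took recovered reads. Tables came from pandas 2.3.3 and numpy 2.4.6, figures from matplotlib 3.10.9, in Python 3.11.15. Genes and promoters came from RefSeq tables of GRCh38.p14. All 33 genes are named, with the region of highest mean CPM standing for a gene and others given by range, or by library where groups did not overlap or a start was covered; further genes are up to 4 per list by CPM per kb, neighbours within 1 kb, and a few chosen after their values were seen. Genes and lists were chosen with earlier results of these data known. Alternatives were other pseudocounts (0.1, 5), filters, scalings, a replicate block, and libraries left out.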

Additional observations from a re-analysis of the deposited data

How the results depend on the processing

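The count of called regions over the whole table, 27 in limma, was 2 when the mean had to reach 10 CPM, 1 with quantile normalization, 2 with median centring (both higher), 0 with edgeR and 0 with DMSO replicates 1 and 2 left out, and ran from 0 to 19600 as each library was left out (19600 without DMSO replicate 3, 6 without DMSO replicate 1, 0 without DMSO replicate 2, 4 without WM-1119 replicate 2 and 5 without WM-1119 replicate 3). The count among the lineage genes was 0 under every alternative run except those that left out 1 library, where it ran from 0 to 15 (15 without DMSO replicate 3, 0 without any other library). The cause was not tested.

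With the replicate number as a block, limma called 496 regions, 384 lower and 112 higher, and 0 of the lineage genes (lowest adjusted p 0.0858). The labels do not say that a number marks a shared batch, so the numbers were not taken as pairs. Correlations of deviations of same-numbered libraries were 0.223, 0.053 and 0.328, and those of different-numbered libraries ran from -0.274 to 0.055. DMSO replicates 1 and 3 correlated best with the WM-1119 library of the same number, and DMSO replicate 2 with WM-1119 replicate 1 (0.055). A shared batch was not tested.

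The median log2 change of the lineage regions, -0.35, kept its sign with pseudocounts of 0.1 and 5 (-0.32 and -0.22), with no filter (-0.28), with a minimum of 10 CPM on the mean (-0.077 over 12 regions, where the median of all regions was 0.06), with the block and with each library left out (-0.57 to -0.22), and turned with quantile normalization (0.04), median centring (0.43), edgeR (0.04) and DMSO replicates 1 and 2 left out (0.22). Of 16 regions followed singly, those that changed sign did so as follows. With quantile normalization, EPOR at 11380081 gave -0.052, ANK1 at 41653517 0.31, ITGA2B 0.45 and NFE2 0.125. With median centring, TCF7 gave 0.36, CD79A 0.077, EPOR at 11373890 0.52 and at 11382945 0.31, ANK1 at 41653517 0.71, at 41791652 0.50 and at 41827988 0.69, ITGA2B 0.70 and NFE2 0.70. With DMSO replicates 1 and 2 left out, TCF7 gave 0.18, EPOR at 11382945 0.26, ANK1 at 41653517 1.08, at 41663783 0.26, at 41791652 0.25 and at 41835841 0.39, TFRC -0.12, ITGA2B 0.24 and NFE2 0.52. With edgeR, TCF7 gave 0.040, EPOR at 11373890 0.16 and at 11382945 0.38, ANK1 at 41653517 0.44, at 41791652 0.29 and at 41827988 0.36, ITGA2B 0.42 and NFE2 0.54. With each library left out in turn, ANK1 at 41653517 ran from -0.63 to 0.50 and at 41827988 from -0.20 to 0.024, TFRC from -0.029 to 0.38, ITGA2B from -0.23 to 0.082 and NFE2 from -0.37 to 0.12. Depth limits the weak regions most: 1 read was 1.39 CPM in DMSO replicate 1, so a mean below 5 CPM rests there on a few reads.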

Other observations

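Among the lineage genes of at least 100 kb, the number of H3K9ac regions per 100 kb differed widely. ANK1 had 4.93, at the 90.4th percentile of the 3356 coding genes of that length, PAX5 had 1.99, VWF 1.14, LEF1 0.824 and EBF1 0.248. The median over such genes was 0.897, and 0.804 over the 164 of them on chromosome 8. Regions narrower than 250 bp made up 18 of the 46 regions of the lineage genes, and 34.2% of all regions.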
